A study of Mus musculus with 48 samples.

Results

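The genes examined were 10 transcripts that MEK-ERK signalling is known to induce, chosen by name: the Sprouty genes Spry1, Spry2 and Spry4, the Sprouty-related genes Spred1 and Spred2, the phosphatase genes Dusp4 and Dusp6, the ETS factors Etv4 and Etv5, and Ier3. This choice was made with earlier results of these data known, so counts and medians over the 10 are descriptions only. All 10 were found among the 48321 rows of the deposited expression table, and all 10 were among the 16179 genes with enough signal to test, which required a level of at least 1 TPM in at least 3 of 9 libraries. TPM, a transcript's share of the library's RNA, is a read count divided by gene length and scaled to a fixed total per library, so levels can be compared between genes. The 9 RNA-seq libraries came from 3 lines of male R1 mouse embryonic stem cells of strain 129SV. There were 3 libraries of Mll3/4 dKO cells, which lack Mll3 (Kmt2c) and Mll4 (Kmt2d), enzymes that methylate lysine 4 of histone H3, 3 of Mll3/4 dCD cells, in which both enzymes were made catalytically deficient, and 3 of wild-type (WT) cells. All 3 lines, WT included, were grown without serum in 2i+LIF, that is with the MEK inhibitor PD0325901, the GSK3 inhibitor CHIR99021 and the cytokine LIF, and were plated on fibronectin before collection. Each genotype is represented by a single line, and whether its replicates were separate cultures is not stated in the labels. A p-value here therefore measures the spread between libraries, which may be technical, and a line's own history cannot be told apart from its genotype.

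In this pathway, receptor tyrosine kinases such as FGF receptors load RAS with GTP, and RAS then activates the kinases RAF, MEK and ERK in turn. ERK enters the nucleus, phosphorylates ETS-family activators and removes the repressor Capicua from DNA, and this induces both further ETS factors and inhibitors that act back on the pathway. In mouse embryonic stem cells, FGF4 and ERK prepare the cells to leave the naive state, which is why a MEK inhibitor is part of 2i medium. The levels below are thus those of ERK output genes under MEK inhibition, and no cells without the inhibitor were analysed here.

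The libraries held 21090624 to 56249770 reads, recovered from the TPM values. Pairs of libraries within a line had a correlation of 0.994 to 0.996, and pairs across lines 0.940 to 0.968. Kmt2c measured 8.0, 7.55 and 7.44 TPM in dKO, 28.6, 25.3 and 27.04 TPM in dCD and 21.7, 19.7 and 21.9 TPM in WT, while Kmt2d measured 80.5 to 84.8 TPM in dKO, 54.6 to 67.8 TPM in dCD and 65.2 to 67.4 TPM in WT. Kmt2c was lower in dKO than in WT (limma adjusted p = 8.37e-09) and Kmt2d was higher, by 0.32 on the log2 scale (limma adjusted p = 0.00194). The edited part of either gene is not given in the labels, so reads outside it check nothing. The 10 embryonic stem cell markers were all well above 1 TPM in every line, with a summed level of 8476 to 8562 TPM in dKO, 11601 to 11923 TPM in dCD and 15683 to 16179 TPM in WT. In dKO 1 of them was higher and 8 were lower, and in dCD 9 were lower and none was higher. Of all tested genes, 28.4% were lower in dKO and 29.5% in dCD. Dppa5a, the most abundant of these markers in dCD and WT, averaged 1199 TPM in dKO, 4909 TPM in dCD and 6433 TPM in WT. Klf4 averaged 808 TPM in dKO, 384 TPM in dCD and 475 TPM in WT. The 8 trophoblast markers summed to 81.1 to 87.5 TPM in dKO, 303.5 to 319.4 TPM in dCD and 85.7 to 89.6 TPM in WT. Of the 7 tested, 4 were higher and 1 lower in dKO, and 6 were higher in dCD, where Krt8 averaged 205.3 TPM, against 40.5 TPM in dKO and 21.9 TPM in WT. Summed primitive endoderm markers stayed at or below 31.9 TPM, and fibroblast and feeder markers at or below 36.2 TPM, in every library. Both sums were higher in each mutant line than in WT. Of 6 primitive endoderm markers tested, 3 were higher in dKO and 4 in dCD, and none was lower. Dab2 averaged 1.76 TPM in dKO, 14.2 TPM in dCD and 0.46 TPM in WT. Of 6 fibroblast and feeder markers tested, 4 were higher and 1 lower in dKO, and 6 were higher in dCD. Of the 8 primitive endoderm markers, 3 averaged under 1 TPM in dKO, 2 in dCD and 5 in WT, and of the 11 fibroblast markers 6, 5 and 8; Lum was at 0 in every dCD library and Twist2 in every WT library. The 8 formative and primed markers summed to 326.0 to 342.7 TPM in dKO, 428.9 to 446.9 TPM in dCD and 532.1 to 550.2 TPM in WT, but 2 of them were higher and 4 lower in dKO, and 3 higher and 3 lower in dCD. Otx2 averaged 23.9 TPM in dKO, 64.4 TPM in dCD and 21.9 TPM in WT. These marker sums move with the line, as do the members below, and their part in the members' values was not tested. In RNA from whole cultures, fewer cells that express a gene and less of its RNA per cell cannot be told apart.

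In WT cells, Etv5 was by far the most abundant of the 10, at 552.8 ± 4.49 TPM (SD, n = 3), and Dusp4 the least, at 10.5 ± 0.640 TPM. Between them came Spry2, Etv4, Spred2, Spry4, Dusp6, Spred1, Ier3 and Spry1 in falling order, with means of 134.2, 86.2, 79.7, 47.2, 44.5, 29.3, 20.7 and 17.6 TPM. Only Ier3 and Spry1, neighbours in that order, overlapped in their WT libraries. The summed level of the 10 transcripts was 890.1 ± 6.03 TPM in dKO, 724.9 ± 18.04 TPM in dCD and 1023 ± 6.59 TPM in WT (SD, n = 3 each). Without Etv5 the sum was 350.5 ± 6.53 TPM in dKO, 297.2 ± 6.87 TPM in dCD and 469.8 ± 5.48 TPM in WT. The summed output was therefore lower in both mutant lines, but the single genes moved apart, as the following values show.

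**Figure D1:**
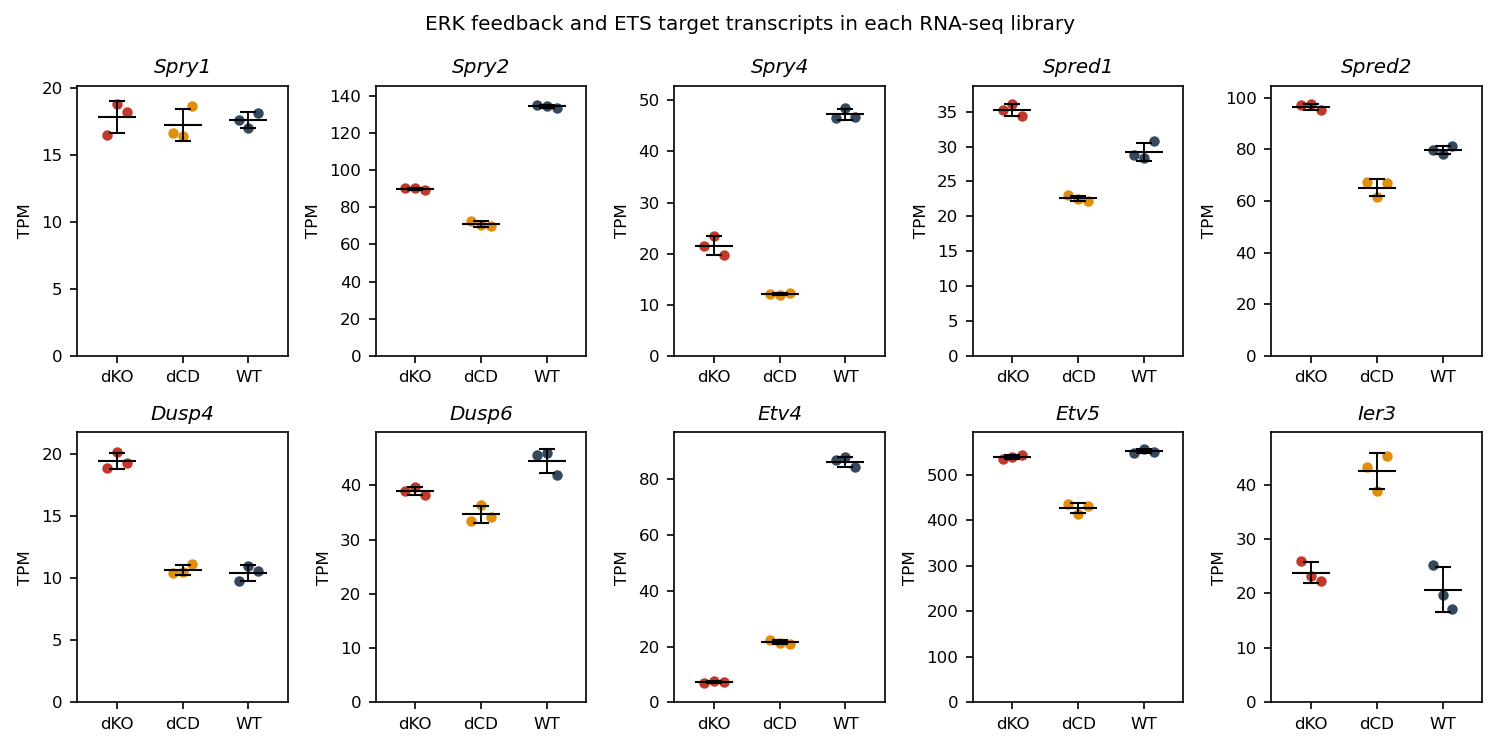
Level of each of the 10 transcripts in TPM (vertical axes, each from 0) in the 3 libraries of dKO, dCD and WT; points are libraries, the wide bar is the mean and the capped bars are ± 1 SD. Etv4, Spry2, Spry4, Dusp6 and, by a narrow margin in dKO, Etv5 lie lower in every mutant library than in any WT library. The Spry1 libraries of the 3 lines overlap, and Ier3 stands higher in dCD only.

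Etv4 and Etv5 encode ETS transcription factors of the same subfamily (PEA3), and both are classical targets of FGF-ERK signalling. Etv4 measured 7.03, 7.75 and 7.46 TPM in dKO, 22.4, 21.3 and 20.9 TPM in dCD and 86.7, 87.7 and 84.2 TPM in WT. The 3 lines did not overlap, and dKO was the lowest. At 8.61% of WT, the dKO level had a log2 fold change of -3.37 with an SE of 0.0416 (limma adjusted p = 2.3e-12), which was the 46th lowest of 16179 fold changes in that contrast. The dCD level was 25.0% of WT (-1.95 on the log2 scale, limma adjusted p = 2.15e-10), the 31st lowest in its contrast. The difference between dKO and dCD was itself past the test (log2 fold change -1.42, limma adjusted p = 7.24e-10). Even the lowest library held 169 reads of Etv4, so counting error was small beside these differences.

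Etv5 behaved differently from its relative. It measured 535, 540 and 543 TPM in dKO, 437, 415 and 431 TPM in dCD and 549, 558 and 551 TPM in WT. In dCD it was 77.4% of WT (log2 fold change -0.37 with an SE of 0.0217, limma adjusted p = 2.43e-07). In dKO, every library lay just below every WT library, but the difference did not pass (log2 fold change -0.03, 95% interval -0.08 to 0.01, limma adjusted p = 0.175). After median-ratio scaling between libraries Etv5 did pass in dKO, at -0.13 (limma adjusted p = 0.000228), and with voom at -0.06 (limma adjusted p = 0.0143), while quantile normalization gave -0.02. Etv4 made up 1.36% ± 0.0551 of the summed Etv4 and Etv5 level in dKO, 4.80% ± 0.147 in dCD and 13.5% ± 0.212 in WT (SD, n = 3 each).

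Sprouty proteins are cytoplasmic inhibitors of receptor tyrosine kinase signalling to RAS, and their genes are switched on by the pathway they restrain. Spry4 measured 21.5, 23.4 and 19.6 TPM in dKO, 12.1, 11.9 and 12.3 TPM in dCD and 46.6, 48.4 and 46.6 TPM in WT. Here dCD was the lowest line and the 3 lines did not overlap. Spry4 was at 45.5% of WT in dKO (log2 fold change -1.10 with an SE of 0.0542, limma adjusted p = 2.7e-08) and at 25.6% in dCD (log2 fold change -1.88, limma adjusted p = 1.67e-09), the 37th lowest fold change of that contrast. The dKO level was higher than the dCD level by 0.78 on the log2 scale (limma adjusted p = 4.84e-07), the reverse of the order seen for Etv4.

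Spry2 measured 90.1, 90.2 and 89.1 TPM in dKO, 72.6, 70.1 and 70.0 TPM in dCD and 134.9, 134.3 and 133.4 TPM in WT. It followed the order of Spry4 with smaller steps, at 66.9% of WT in dKO (log2 fold change -0.57, limma adjusted p = 4.76e-09) and 52.8% in dCD (log2 fold change -0.91, limma adjusted p = 5.63e-10). The dKO and dCD lines differed by 0.34 on the log2 scale (limma adjusted p = 3.55e-07). Spry1 measured 16.5, 18.8 and 18.2 TPM in dKO, 16.7, 16.4 and 18.6 TPM in dCD and 17.6, 17.0 and 18.2 TPM in WT, with all 3 lines overlapping. No Spry1 contrast passed the test; the interval of its log2 fold change ran from -0.12 to 0.15 in dKO and from -0.16 to 0.11 in dCD. Its sign changed under other scalings in dKO, and it was the only member that did not pass the moderated F test across the 3 lines (limma adjusted p = 0.769), where 9 of 10 members passed against 82.6% of all tested genes. Spry4 made up 16.7% ± 1.10 of the summed Sprouty level in dKO, 12.1% ± 0.1 in dCD and 23.7% ± 0.456 in WT (SD, n = 3 each).

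Spred1 and Spred2 are membrane-associated relatives of the Sproutys that block the activation of RAF by RAS, Spred1 by bringing the RAS-inactivating protein neurofibromin to the membrane. Spred1 measured 35.2, 36.1 and 34.4 TPM in dKO, 23.0, 22.4 and 22.3 TPM in dCD and 28.8, 28.3 and 30.7 TPM in WT. Spred2 measured 97.0, 97.4 and 95.2 TPM in dKO, 67.1, 61.4 and 66.7 TPM in dCD and 79.9, 78.1 and 81.1 TPM in WT. Both genes were higher in dKO and lower in dCD than in WT, with no overlap between lines. In dKO the log2 fold changes were 0.26 for Spred1 (SE 0.0377, limma adjusted p = 0.00011) and 0.27 for Spred2 (SE 0.0348, limma adjusted p = 4.23e-05). The median of all tested genes was 0.096 in that contrast, and median-ratio scaling reduced them to 0.17 (Spred1, limma adjusted p = 0.00189) and 0.18 (Spred2, limma adjusted p = 0.000458). In dCD the log2 fold changes were -0.36 for Spred1 (limma adjusted p = 1.75e-05) and -0.29 for Spred2 (limma adjusted p = 4.88e-05), against an all-gene median of -0.009. Between dKO and dCD the differences were 0.62 for Spred1 and 0.56 for Spred2, the larger of the 2 limma adjusted p being 2.01e-07.

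Dusp6 encodes a cytoplasmic phosphatase selective for ERK, and Dusp4 a nuclear phosphatase of ERK and related kinases. Dusp6 measured 39.0, 39.6 and 38.3 TPM in dKO, 33.5, 36.4 and 34.1 TPM in dCD and 45.5, 46.0 and 42.0 TPM in WT. It fell in both mutant lines, to 87.6% of WT in dKO (log2 fold change -0.19, limma adjusted p = 0.0028) and to 77.9% in dCD (log2 fold change -0.35, limma adjusted p = 5.6e-05). The fall in dKO was -0.28 after median-ratio scaling. The difference of 0.16 between dKO and dCD (limma adjusted p = 0.00601) did not hold under other scalings of Dusp6, at 0.07 after median-ratio scaling (limma adjusted p = 0.229) and 0.08 after quantile normalization (limma adjusted p = 0.142). Dusp4 measured 18.9, 20.2 and 19.3 TPM in dKO, 10.4, 10.5 and 11.1 TPM in dCD and 9.76, 11.01 and 10.6 TPM in WT. It rose in dKO alone, by 0.84 on the log2 scale (1.86-fold in TPM, SE 0.0523, limma adjusted p = 1.72e-07), and the dKO level was also above dCD by 0.81 (limma adjusted p = 2.84e-07). In dCD the Dusp4 libraries overlapped those of WT (log2 fold change 0.03, 95% interval -0.09 to 0.15, limma adjusted p = 0.667).

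Ier3 is an immediate early gene whose product is an ERK substrate with a role in cell survival. It measured 26.0, 23.2 and 22.2 TPM in dKO, 43.2, 38.8 and 45.3 TPM in dCD and 25.2, 19.6 and 17.2 TPM in WT. All dCD libraries lay above all others, whereas the dKO and WT libraries overlapped. The dCD level was 2.05 times that of WT (log2 fold change 1.01 with an SE of 0.118, limma adjusted p = 3.68e-05), and the value in dKO relative to dCD was -0.81 (limma adjusted p = 0.000132). Against WT, dKO did not pass (log2 fold change 0.21, limma adjusted p = 0.137), but WT replicate 1, the highest WT library, decided this: without it the value was 0.35 (limma adjusted p = 0.00463), and without WT replicate 3 it was 0.09. Ier3 is a short gene of 1131 bases with 124 to 274 reads per WT library, the fewest of the 10 in WT replicate 3, so its values carry more counting error.

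**Figure D2:**
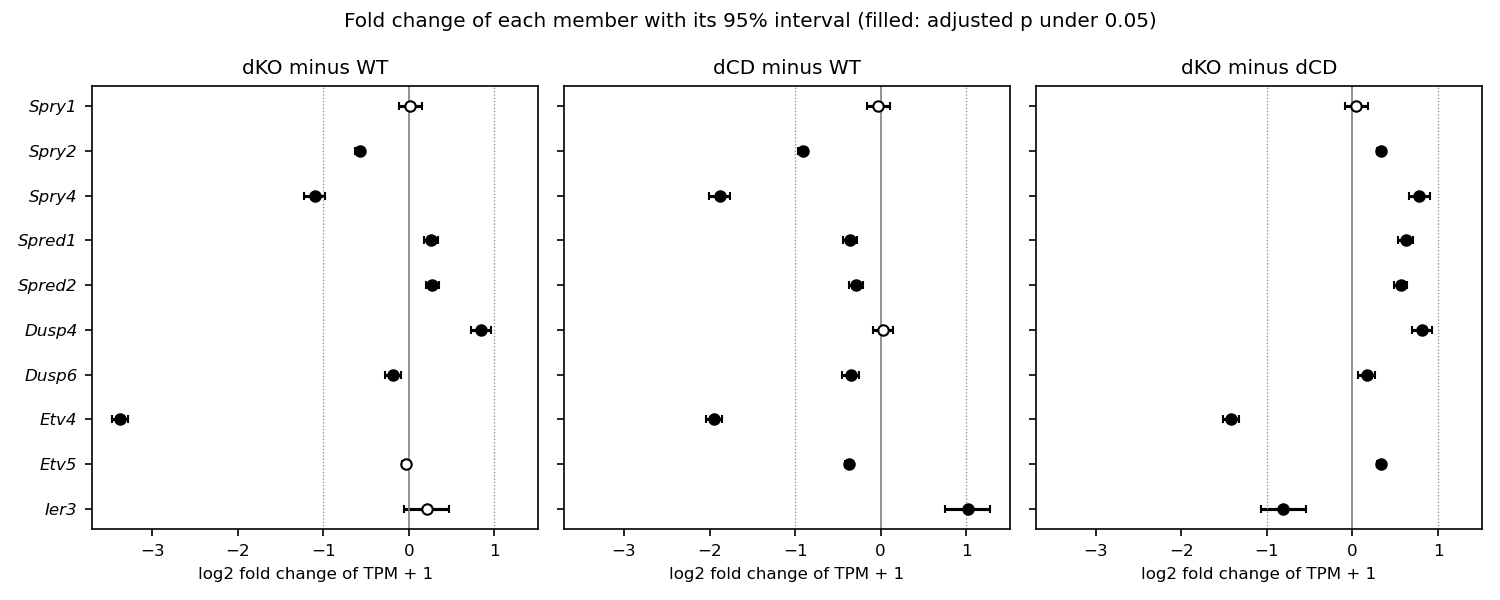
Log2 fold change of TPM + 1 for each member (horizontal axes) in dKO minus WT, dCD minus WT and dKO minus dCD, with 95% intervals from the limma fit; filled points passed at an adjusted p under 0.05 and dotted lines mark a 2-fold change. Etv4 at -3.37 in dKO and Spry4 and Etv4 at -1.88 and -1.95 in dCD stand apart, and Spred1 and Spred2 lie on opposite sides of 0 in the first and second panels.

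Counted over the 10 members, dKO against WT gave 3 higher (Dusp4, Spred1 and Spred2), 4 lower (Etv4, Spry4, Spry2 and Dusp6) and 3 that did not pass (Etv5, Ier3 and Spry1). The share of all tested genes called in that contrast was 71.8%, with 43.4% higher and 28.4% lower, so 7 called members of 10 is close to the background. Of the called genes, 60.4% were higher, and 50.5% after median-ratio scaling. At least 2-fold, 2 of the 10 were lower (Etv4 and Spry4) against 7.89% of all tested genes, and none was higher against 6.01%. The median log2 fold change of the members was -0.01, beside 0.096 for all tested genes. Libraries of the 2 lines did not overlap for 8 of 10 members, against 74.4% of all genes.

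In dCD against WT, 1 member was higher (Ier3), 7 were lower (Etv4, Spry4, Spry2, Etv5, Spred1, Dusp6 and Spred2) and 2 did not pass (Dusp4 and Spry1). The background was 58.4% called, with 28.9% higher and 29.5% lower. At least 2-fold, Etv4 and Spry4 were lower against 2.32% of all tested genes, and Ier3 was higher against 4.62%; the share past 2-fold in either direction was 6.94%. The members' median was -0.36, beside -0.009 for all tested genes, and 8 of 10 members had libraries that did not overlap, against 63.5%. Both contrasts use the same 3 WT libraries, so the falls of Etv4, Spry4, Spry2 and Dusp6 in both are not independent observations.

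Between dKO and dCD, 7 members were higher in dKO (Dusp4, Spry4, Spred1, Spred2, Spry2, Etv5 and Dusp6), 2 were lower (Etv4 and Ier3) and Spry1 did not pass. The background was 69.3% called, with 42.3% higher and 27% lower; of the called genes, 61.0% were higher, and 49.8% after median-ratio scaling. Only Etv4 differed by at least 2-fold, lower in dKO, against 7.36% of all tested genes lower by that much, and no member was higher by 2-fold, against 3.6% of genes. The median of the members was 0.34, beside 0.095 for all tested genes. Libraries did not overlap for 9 of 10 members, against 73.1%.

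**Figure D3:**
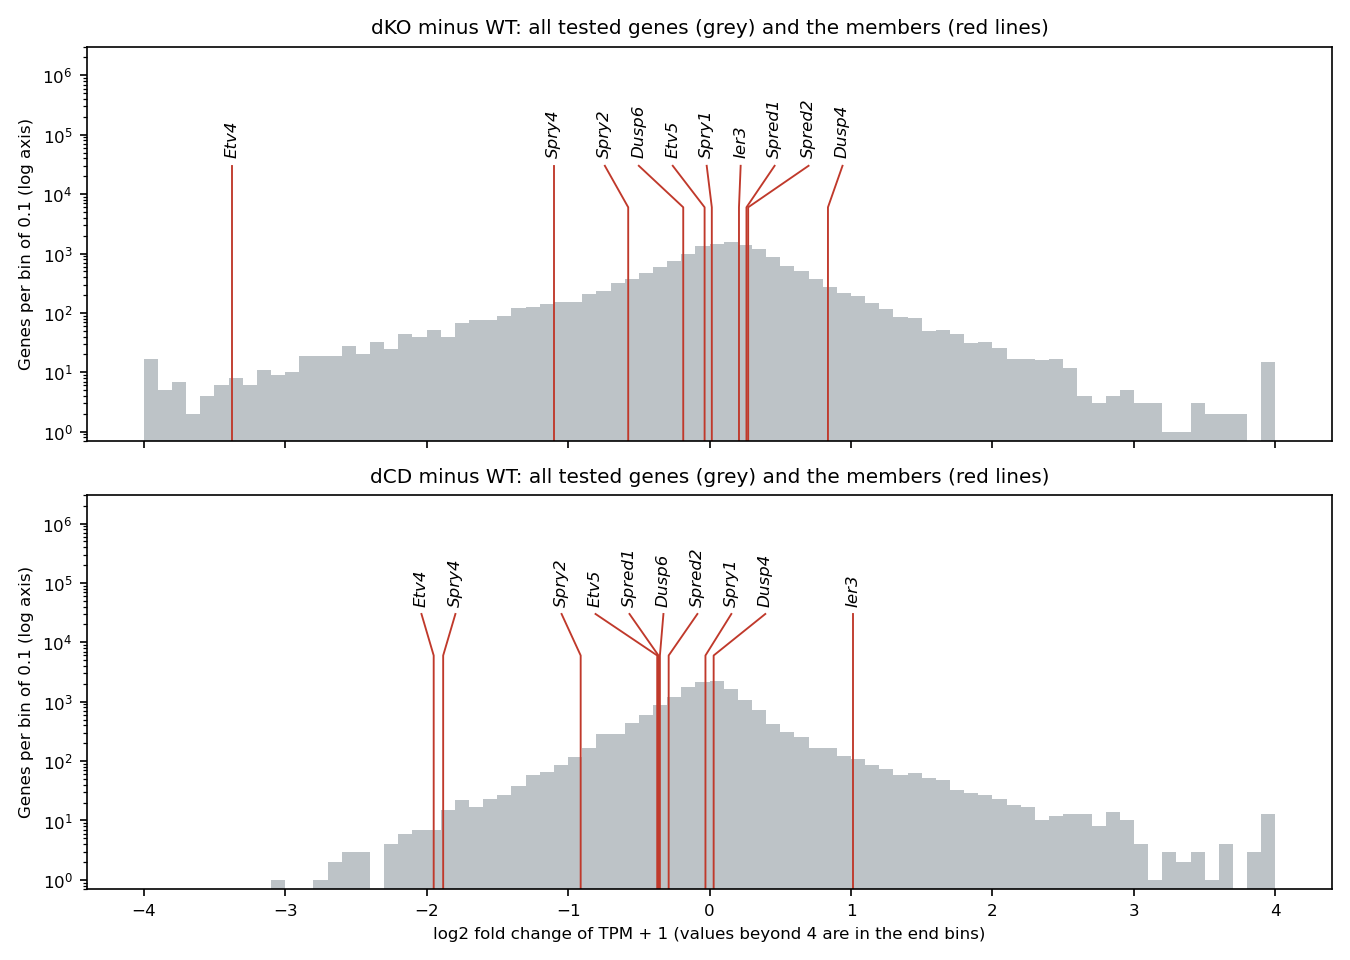
Number of tested genes per bin of 0.1 log2 fold change (vertical log axis, grey bars) in dKO minus WT (top) and dCD minus WT (bottom), with the members as red lines. In dKO the members spread from -3.37 to 0.84 around a median near 0, while in dCD 7 of 10 lie between -1.95 and -0.29.

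Start-site sequences were compared for the members that RefSeq promoter windows cover. Windows of 300 bases, from 250 before to 50 after a start on build GRCm38.p6, matched 7 of the 10 genes with 8 windows; Spry4, Dusp4 and Etv4 had no entry. They were searched on both strands for the ETS core GGAAGT and for the Capicua octamers TGAATGAA, TGAATGGA, TCAATGAA and TCAATGGA, and no matches overlapped. Shown are the windows that held a match, those of Spry2, Dusp6, the downstream start of Etv5 and Spred2. They were chosen by that match and not by the change of the gene. Spred1, which moved in opposite directions as Spred2 did, held no match and is not shown. Capitals mark motif matches; a match on the minus strand reads as the reverse complement.
Spry2: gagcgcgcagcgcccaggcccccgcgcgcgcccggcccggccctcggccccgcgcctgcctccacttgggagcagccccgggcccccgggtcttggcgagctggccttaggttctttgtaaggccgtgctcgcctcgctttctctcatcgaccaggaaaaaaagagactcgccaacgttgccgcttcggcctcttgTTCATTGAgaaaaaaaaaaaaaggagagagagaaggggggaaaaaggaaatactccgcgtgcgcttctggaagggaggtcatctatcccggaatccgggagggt
Dusp6: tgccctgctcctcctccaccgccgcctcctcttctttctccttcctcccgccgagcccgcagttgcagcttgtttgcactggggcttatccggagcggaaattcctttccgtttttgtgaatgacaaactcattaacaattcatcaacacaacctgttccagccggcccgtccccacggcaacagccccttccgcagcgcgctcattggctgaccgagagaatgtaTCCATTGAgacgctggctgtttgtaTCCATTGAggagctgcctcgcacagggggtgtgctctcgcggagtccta
Etv5: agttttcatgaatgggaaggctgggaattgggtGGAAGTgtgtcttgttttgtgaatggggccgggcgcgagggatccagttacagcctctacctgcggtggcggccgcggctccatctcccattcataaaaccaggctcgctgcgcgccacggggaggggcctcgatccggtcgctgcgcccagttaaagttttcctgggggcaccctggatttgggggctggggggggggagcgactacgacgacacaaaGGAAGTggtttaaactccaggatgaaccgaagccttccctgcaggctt
Spred2: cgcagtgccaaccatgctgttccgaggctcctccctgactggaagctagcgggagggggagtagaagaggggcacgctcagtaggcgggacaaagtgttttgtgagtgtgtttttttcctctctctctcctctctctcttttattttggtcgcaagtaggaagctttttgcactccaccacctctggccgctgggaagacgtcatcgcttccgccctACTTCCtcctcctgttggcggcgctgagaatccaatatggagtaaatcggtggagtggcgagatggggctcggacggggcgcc
The Spry2 window is chr14:105896770-105897069 (minus strand), that of Dusp6 chr10:99262981-99263280 (plus strand), that of Etv5 chr16:22438319-22438618 (minus strand) and that of Spred2 chr11:19924192-19924491 (plus strand). Spry2 held 1 Capicua octamer, TCAATGAA from base 197 of its window, and Dusp6 held 2 copies of TCAATGGA, from bases 227 and 252, all on the minus strand. A Capicua octamer of any of the 4 forms was found in 3.84% of the 32851 windows in the table. The ETS core occurred at bases 34 and 253 of the Etv5 window and at base 218 of the Spred2 window, and in 23.8% of all windows. The windows of Spry1, Spred1, Ier3 and the upstream start of Etv5 held none of these letters. These matches describe the windows only and say nothing of binding.

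Of the cascade that carries the signal, 21 of 22 listed genes were tested, from receptor adaptors to the ERK-activated kinases. In dKO, 13 were higher and 7 lower than in WT, none by 2-fold, against 43.4% and 28.4% of all tested genes. The list's median log2 fold change was 0.17, beside 0.096 for all tested genes, and median-ratio scaling left 9 higher and 7 lower. Sos2, a RAS exchange factor, was at 0.87 (limma adjusted p = 2.55e-07) and Rps6ka3, a kinase activated by ERK, at 0.43 (limma adjusted p = 6.55e-06). Ksr1, a scaffold for RAF and MEK, was at -0.82 (limma adjusted p = 3.38e-07) and Rps6ka1, a relative of Rps6ka3, at -0.66 (limma adjusted p = 6.31e-08). In dCD, 8 were higher and 4 lower, again none by 2-fold, against 28.9% and 29.5% of all tested genes, with a median of 0.02 beside -0.009. The FGF receptor adaptor Frs2 averaged 42.7 ± 1.10 TPM in dCD and 29.1 ± 1.40 TPM in WT (SD, n = 3 each; log2 fold change 0.54, limma adjusted p = 1.78e-06), and Rps6ka3 was at 0.45. Ksr1 at -0.27 and Nras, a RAS gene, at -0.15 were the 2 lowest. Between dKO and dCD, 10 were higher and 8 lower, against 42.3% and 27% of all tested genes, and 7 and 10 after median-ratio scaling. In that contrast Sos2 at 0.52 and the MEK scaffold Lamtor3 at 0.38 were higher in dKO, and the adaptor Gab1 at -0.75 and Rps6ka1 at -0.60 lower.

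Of 14 other inhibitors of the pathway on the list, 12 were tested; 8 were higher and 3 lower in dKO, against 43.4% and 28.4% of all tested genes. Their median log2 fold change was 0.23, beside 0.096 for all genes, and 6 were higher after median-ratio scaling. Dusp1, a nuclear phosphatase of MAP kinases, measured 12.6, 12.8 and 13.6 TPM in dKO, 79.8, 76.4 and 83.2 TPM in dCD and 75.7, 68.9 and 69.4 TPM in WT, so that the dKO libraries lay below all others. Its log2 fold change in dKO was -2.37 (SE 0.0474, limma adjusted p = 4.35e-11). Dusp9, an ERK phosphatase known in embryonic stem cells, measured 164, 157 and 155 TPM in dKO, 447, 440 and 466 TPM in dCD and 267, 264 and 262 TPM in WT. It fell in dKO (log2 fold change -0.73, limma adjusted p = 4.23e-09) and rose in dCD (0.77, limma adjusted p = 8.04e-09), the opposite of Spred1 and Spred2. Pea15a, whose product holds ERK in the cytoplasm, measured 16.6, 16.7 and 17.5 TPM in dKO, 27.2, 28.4 and 26.8 TPM in dCD and 5.76, 5.78 and 5.17 TPM in WT, a rise of 1.45 in dKO (limma adjusted p = 1.7e-09) and 2.12 in dCD (limma adjusted p = 3.64e-10). Errfi1, a feedback inhibitor of the EGF receptor, also rose, by 0.65 in dKO and 0.88 in dCD. In dCD, 6 of the 12 were higher and 3 lower, against 28.9% and 29.5% of all tested genes, with a median of 0.145 beside -0.009. Those lower included Rasa3, a RAS GTPase-activating protein, at -0.46 (limma adjusted p = 0.000346) and the ERK phosphatase gene Dusp7 at -0.42 (limma adjusted p = 2.27e-05). Between dKO and dCD, 6 were higher, or 4 after median-ratio scaling, and 5 lower, against 42.3% and 27% of all tested genes, with Dusp7 at 0.63, the neurofibromin gene Nf1 at 0.53, Dusp1 at -2.53 and Dusp9 at -1.50.

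**Figure D4:**
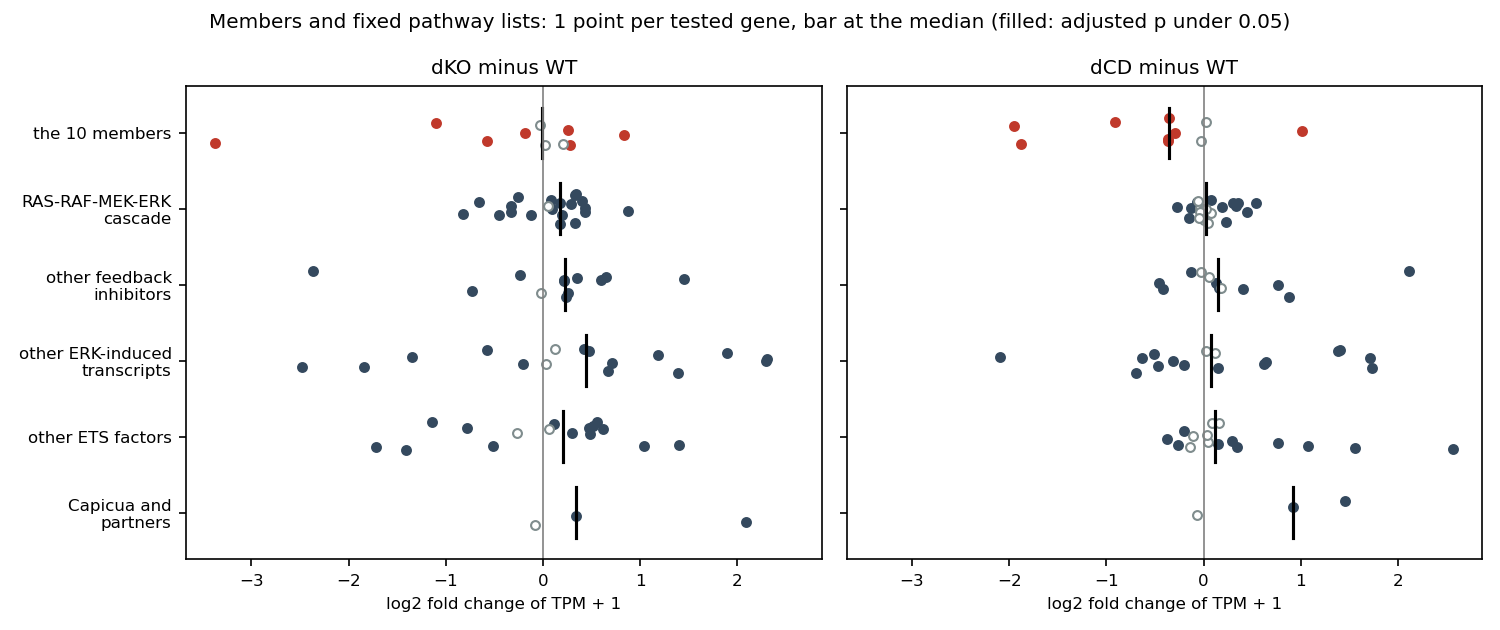
Log2 fold change of TPM + 1 (horizontal axes) in dKO minus WT (left) and dCD minus WT (right), 1 point per tested gene of the members and of the 5 pathway lists; filled points passed at an adjusted p under 0.05, and the black bar is the median of the row. The cascade genes lie within 1 log2 unit of 0 in both panels, while every other row reaches past 2 units in at least 1 panel.

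Of 20 other transcripts known to be induced by ERK, 16 were tested. The immediate early genes Egr1, Egr2, Egr3 and Fosb were not tested because they stayed below the minimum, with at most 0.84 TPM in any library. In dKO, 9 were higher and 5 lower, against 43.4% and 28.4% of all tested genes. By at least 2-fold, 5 were higher and 3 lower, against 6.01% and 7.89%, and the median was 0.45 beside 0.096. The cyclin D1 gene Ccnd1 measured 214, 208 and 209 TPM in dKO, 46.9, 46.7 and 47.2 TPM in dCD and 42.4, 41.9 and 41.9 TPM in WT, a rise in dKO of 2.29 (SE 0.0221, limma adjusted p = 6.96e-13). Emp1, a membrane protein gene, was at 2.31 in dKO. Epha4, an ephrin receptor gene, measured 11.8, 11.2 and 12.3 TPM in dKO, 16.6, 14.8 and 15.7 TPM in dCD and 69.9, 70.0 and 70.9 TPM in WT. Epha4 fell in both lines, by 2.48 in dKO (limma adjusted p = 2.77e-11) and 2.10 in dCD (limma adjusted p = 2.63e-10), and stood 21st from the lowest of all fold changes in dCD. Plaur, the urokinase receptor gene, was also lower in both, at -1.84 and -0.70. In dCD, 7 were higher and 7 lower, against 28.9% and 29.5% of all tested genes, with a median of 0.07 beside -0.009. By at least 2-fold, 4 were higher and 1 lower in dCD, against 4.62% and 2.32%. Ier5 at 1.73 and Phlda1 at 1.71 were the highest. Phlda1 averaged 10.3 ± 0.655 TPM in dCD and 2.47 ± 0.306 TPM in WT (SD, n = 3 each). Between dKO and dCD, 7 were higher and 8 lower, against 42.3% and 27% of all tested genes, with Ccnd1 at 2.14 and Emp1 at 1.66 against Plaur at -1.15 and Phlda1 at -1.04. Members of this list thus moved in both directions within each line, as did the 10 members in dKO.

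Among 23 other ETS factors, which bind the same GGAA-centred core, 16 were tested. In dKO, 9 were higher and 5 lower, against 43.4% and 28.4% of all tested genes, with a median of 0.21 beside 0.096. Elf1 was at 1.40 (limma adjusted p = 6.75e-10) and Ets1 at 1.03, while the epithelial factor Elf3 was at -1.72 (limma adjusted p = 1.03e-09) and Spic, a factor of the PU.1 subfamily, at -1.41. In dCD, 7 were higher and 3 lower, against 28.9% and 29.5% of all tested genes, with a median of 0.12 beside -0.009. Ets1 measured 2.47, 2.36 and 2.09 TPM in dKO, 8.44, 8.78 and 8.50 TPM in dCD and 0.55, 0.63 and 0.67 TPM in WT, which gave 2.57 on the log2 scale in dCD (SE 0.0757, limma adjusted p = 1.91e-09). Spic measured 0.98, 0.55 and 0.60 TPM in dKO, 11.8, 13.2 and 11.9 TPM in dCD and 3.11, 3.53 and 3.93 TPM in WT, so the 2 lines stood on either side of WT. Because Ets1 and Spic are low, their values depend on the scale. In dKO a pseudocount of 0.1 gave 1.75 for Ets1 and -2.19 for Spic. In dCD, Ets1 ranged from 2.56 to 3.78 and Spic from 1.56 to 1.80 under the settings other than leaving out a library. The ETS repressor genes Etv6 and Elk3 were at -0.26 and -0.38 in dCD, and higher in dKO than in dCD by 0.81 and 0.99, with 7 of the 16 higher and 7 lower in that contrast, against 42.3% and 27% of all tested genes.

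Capicua represses Etv4, Etv5, Spry4 and Dusp6 in mammalian cells until ERK removes it, and the ataxin-family proteins Atxn1 and Atxn1l bind and stabilize it. Of these 3 genes, 2 were higher and none lower than in WT in each mutant line, where 43.4% of all tested genes were higher in dKO and 28.9% in dCD. Cic, the Capicua gene, measured 112, 108 and 113 TPM in dKO, 83.5, 80.0 and 88.2 TPM in dCD and 89.7, 87.2 and 86.4 TPM in WT. It was higher in dKO (log2 fold change 0.34 with an SE of 0.0355, limma adjusted p = 1.02e-05) and did not pass in dCD (-0.07, limma adjusted p = 0.141; -0.10 and limma adjusted p = 0.0229 without dCD replicate 3). Atxn1l measured 25.1, 26.0 and 26.5 TPM in dKO, 17.0, 15.5 and 16.7 TPM in dCD and 4.99, 5.53 and 5.53 TPM in WT, with no overlap between lines. It rose by 2.08 in dKO (SE 0.0517, limma adjusted p = 1.9e-10) and 1.45 in dCD (limma adjusted p = 6.57e-09), and dKO lay above dCD by 0.63. Atxn1 was low, at 0.915 ± 0.0415 TPM in dKO, 2.85 ± 0.306 TPM in dCD and 1.03 ± 0.139 TPM in WT (SD, n = 3 each), and passed against WT only in dCD, at 0.92 (limma adjusted p = 2.03e-05). That value for Atxn1 was 1.38 with a pseudocount of 0.1 and 1.503 with voom.

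The genes whose pattern over the 9 libraries was most like a member's were found for the 3 members with at least a 2-fold range between lines. Likeness was the smallest root mean square difference in log2(TPM + 1) relative to the WT mean. The search covered 10004 other genes averaging at least 5 TPM over the 9 libraries, leaving out Gm, Rik and similar symbols. For Etv4 they were Atp6v0a4 (difference 0.20), Pacsin1 (0.23) and Aox3 (0.26). These averaged 0.426, 0.926 and 0.0976 TPM in dKO, 3.86, 6.36 and 2.98 TPM in dCD and 14.0, 24.9 and 14.4 TPM in WT. All 3 are near the floor in dKO, where Etv4 averaged 7.415 TPM. Their likeness to Etv4 therefore holds on the log2(TPM + 1) scale and not for ratios of TPM. For Spry4 they were Enox1 (0.13), Xaf1 (0.16) and Kdelr3 (0.19), and Enox1 averaged 11.6 TPM in dKO, 6.04 TPM in dCD and 23.1 TPM in WT. For Ier3 they were Esrp2 (0.10), Pou3f1 (0.12) and Nes (0.13), the second of which averaged 9.79 TPM in dKO, 18.6 TPM in dCD and 9.08 TPM in WT.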

How the data were processed

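Polyadenylated RNA of 9 libraries (3 dKO, 3 dCD, 3 WT, grouped by title) was analysed from the TPM values the authors deposited, 1 per gene and library, beside a gene length in bases; the other 39 of 48 samples were not analysed here. Per the submitters' processing notes, HISAT2, featureCounts and DESeq2 were used, without versions or roles, on build mm9. The annotation, the strand setting and the handling of multiply mapped reads are not stated by these notes, so reads of overlapping or antisense genes may be mixed. TPM times gene length gave whole multiples of 1 step per library for at least 99.8% of values above 0 (within 0.01), which gave the recovered reads.

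Genes with at least 1 TPM in at least 3 libraries entered 1 limma fit of all 9 libraries (version 3.58.1, R 4.3.3, trended eBayes) on log2(TPM + 1), two-sided, with Benjamini-Hochberg adjustment over 16179 genes and a threshold of 0.05. Fold changes are on that scale, which understates low genes. The code was tested on simulated data. The members and lists were chosen with earlier results of these data known. Named list genes are the 2 called genes with the highest and the 2 with the lowest log2 fold change per list and contrast whose libraries do not overlap. Some named genes and values fall outside that rule and were added after their values were seen. They are Egr1, Egr2, Egr3 and Fosb, Dusp9 and Cic in dCD, Atxn1 and Rasa3 in dKO, and Rps6ka3 between dKO and dCD. The same holds for the markers Krt8, Otx2, Lum, Twist2, Dppa5a, Klf4 and Dab2. Alternatives covered the pseudocount, the filter, scaling, voom, 2 lines only, the replicate block and leaving out each library. Replicates differed beyond sampling noise (chi-square per degree of freedom 1.58 to 4.14), so all were kept. Tables and plots used Python 3.11.15, pandas 2.3.3, numpy 2.4.6 and matplotlib 3.10.9.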

Additional observations from a re-analysis of the deposited data

How the results depend on the processing

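Under the 8 alternative settings other than leaving out a library, 232 of 240 comparisons of the members' log2 fold changes kept their direction and side of the threshold, and 265 of 270 did so without 1 library. Spry1 changed sign in dKO against WT (-0.077 with median-ratio scaling, -0.088 with quantile normalization, and -0.022 to 0.068 without 1 library, below 0 without dKO replicate 2 or WT replicate 2), in dCD against WT (-0.083 to 0.002 without 1 library, above 0 without dCD replicate 2) and between dKO and dCD (-0.047 and -0.061 with those scalings); none of these passed, and the cause was not tested. Dusp4 in dCD ranged from -0.016 to 0.063 without 1 library, below 0 without WT replicate 1. Etv5 and Ier3 in dKO and Dusp6 between dKO and dCD changed their call as given beside them. Among other named genes, Rps6ka3 between dKO and dCD ranged from -0.046 to 0.009 without 1 library, above 0 without dCD replicate 1 or 2, and passed with median-ratio scaling (-0.105, limma adjusted p = 0.0476) and quantile normalization (-0.115, limma adjusted p = 0.0306). Kmt2d in dCD ranged from -0.13 to 0.023, above 0 without dCD replicate 2. Rasa3 in dKO lost its call without WT replicate 1 (-0.18, limma adjusted p = 0.054) or WT replicate 2 (-0.20, limma adjusted p = 0.053). Of the counts, the other ETS factors lower in dCD numbered 5 with voom against 3. At a minimum of 5 TPM, 1 Capicua gene was higher in dCD against 2, and 0 was lower in dKO than in dCD against 1, since Atxn1 was not tested there. Capicua genes lower in dCD ranged from 0 to 1 without 1 library (1 without dCD replicate 3). Libraries with the same number did not deviate together (r of -0.0494 to 0.0424, against -0.0655 to 0.0726 for different numbers). Whether same-numbered libraries were prepared together cannot be decided from these values. With the replicate block, 7, 8 and 9 members passed in dKO against WT, dCD against WT and dKO against dCD, and 61 and 47 pathway list genes passed in the first and second of these, each as many as without it. Among the members, Ier3 had the lowest read count in a library, 124.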
